A study of Macaca mulatta and Mus musculus and Rattus norvegicus with 12 samples.

Results

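BAMBI, the ID family (ID1, ID2, ID3 and ID4) and the inhibitory SMADs (SMAD6 and SMAD7) make up a set of 7 genes. Cells switch them on in response to bone morphogenetic proteins (BMPs), and BAMBI, SMAD6 and SMAD7 restrain the same signal. The 7 genes were taken from the count tables by gene symbol. All 7 had a row among 38599 gene symbols in mouse and among 35259 in rat, and 5 had a row among 28641 in macaque, where ID1 and ID3 were absent under those symbols. The 7 genes were selected on their read counts in calvaria and tibia of these same libraries, with the site differences already known, so their site values below are a description and no test of the site difference is drawn from them.

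RNA was sequenced from bone enriched for osteocytes, the cells buried in bone matrix, at 2 sites of the skeleton, the calvaria, or roof of the skull, and the tibia, to ask how the skull and a loaded long bone differ in 3 species. C57BL6 mice of 4 months gave M4 and M8 from calvaria and M5 and M7 from tibia, each a pool of 3 animals, and Wistar rats of 6 months gave R1 from calvaria and R3 from tibia, each a pool of 2 animals. Rhesus macaques gave G1, G3 and T1 from calvaria and G2, G4 and T2 from tibia, each a sample of 1 animal, with an age of 4 to 6 that the labels give in months and the study's methods in years. The labels name no transgene and no treatment in any group. The periosteum was stripped from every bone and surface cells were loosened with collagenase, and marrow was spun out of the rodent tibias only. Reads on named genes numbered between 7951585 and 16826535 a library, so a gene at 1 CPM (the read count scaled by library size) rested on about 8 to 17 reads.

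BMPs bind pairs of type I and type II serine/threonine kinase receptors, which phosphorylate SMAD1, SMAD5 and SMAD9, and these enter the nucleus with SMAD4. BAMBI is a transmembrane protein that resembles a type I receptor but lacks its kinase domain, so it acts as a decoy. The ID proteins have a helix-loop-helix but no DNA-binding basic region, and they hold basic helix-loop-helix (bHLH) factors such as E proteins away from DNA. SMAD6 and SMAD7 occupy activated receptors and recruit ubiquitin ligases, SMAD6 mainly against BMP and SMAD7 against both BMP and TGF-β. In bone, this pathway drives osteoblast differentiation, and osteocytes both answer it and secrete antagonists of it.

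The 4 ID genes share the helix-loop-helix, and the coding stretch that spans it is shown because it is where their reads could most easily be confused. A window of 123 bases in which the 4 mouse coding sequences were most alike without gaps is given 5′ to 3′ on the coding strand from GENCODE vM21 (GRCm38), with capitals where all 4 genes have the same base. It lies in the first exon of each gene, within the coding sequence.
Id1: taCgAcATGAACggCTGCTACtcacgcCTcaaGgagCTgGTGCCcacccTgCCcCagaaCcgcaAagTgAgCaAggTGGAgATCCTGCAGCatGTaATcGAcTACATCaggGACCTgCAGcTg
Id2: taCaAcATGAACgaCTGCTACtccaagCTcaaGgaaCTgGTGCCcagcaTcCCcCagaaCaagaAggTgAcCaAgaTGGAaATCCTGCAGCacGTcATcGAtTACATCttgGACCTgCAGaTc
Id3: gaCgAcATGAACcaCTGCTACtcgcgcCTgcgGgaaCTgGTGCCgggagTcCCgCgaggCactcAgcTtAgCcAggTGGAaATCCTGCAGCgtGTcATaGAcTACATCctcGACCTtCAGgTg
Id4: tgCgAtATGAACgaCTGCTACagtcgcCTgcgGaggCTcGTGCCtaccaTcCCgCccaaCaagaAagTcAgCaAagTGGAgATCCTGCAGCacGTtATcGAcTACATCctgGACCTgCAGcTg

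Of the 123 bases, 70 were the same in all 4 genes. Id1 and Id2 were the most alike, with 80.5% equal bases in the window, and Id3 shared 70.7% with each of the other ID genes. Over the whole annotated transcripts the longest exact run that any 2 ID genes had in common was 19 bases, between Id2 and Id3, and Smad6 and Smad7 shared at most 12. The reads were 125 bases long, so none of these runs fills a read. The windows lie at chr2:152736518-152736640 in Id1 (plus strand), chr12:25095780-25095902 in Id2 (minus strand), chr4:136144002-136144124 in Id3 (plus strand) and chr13:48261693-48261815 in Id4 (plus strand). Mouse Bambi also has a processed pseudogene on another chromosome, which shares runs of at most 46 bases with it.

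BAMBI, the decoy receptor, was higher in tibia than in calvaria in all 3 species. In mouse, reads on BAMBI numbered 438 and 254 in M4 and M8 from calvaria, against 1672 and 1852 in M5 and M7 from tibia. Normalised to library size with TMM factors, these were 28.0 and 19.4 CPM against 94.5 and 127 CPM. The sites did not overlap, and the fitted log2 fold change of calvaria over tibia was -2.22 ± 0.30 (SE, n = 2 and 2), 4.66-fold higher in tibia. In bulk samples such as these, fewer cells of a type and less RNA per cell cannot be told apart.

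In rat, BAMBI had 114 reads in calvaria and 1213 in tibia, 8.00 against 99.2 CPM, a log2 ratio of -3.62 with no replicates. In macaque its level was 513, 477 and 436 CPM in calvaria (G1, G3 and T1) and 813, 837 and 677 CPM in tibia (G2, G4 and T2). Every tibia library lay above every calvaria library here too, but the difference was smaller than in the rodents, at a log2 fold change of -0.71 ± 0.18 (SE, n = 3 and 3). Within the libraries lettered G the log2 difference of the means was -0.74, and within those lettered T, with 1 library of each site, it was -0.64.

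ID1, a helix-loop-helix inhibitor and a classic immediate target of BMP receptors, was higher in tibia in both rodents but not in macaque, and the difference between species was not tested. In mouse it stood at 102 and 43.7 CPM in calvaria and at 121 and 140 CPM in tibia, a log2 fold change of -0.84 ± 0.34 (SE, n = 2 and 2). The 2 calvaria libraries differed by 2.33-fold, more than the sites did on average (1.79-fold), and ID1 was not called. Its rat reads were 831 in calvaria and 2560 in tibia, a log2 ratio of -1.84, just inside the threshold of 2 used for this unreplicated pair.

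The macaque table has no ID1 row, but a locus that the RefSeq table names ID1 stood at 28.3, 20.3 and 37.9 CPM in calvaria and at 22.6, 10.0 and 54.0 CPM in tibia. The tibia values spanned more than those of calvaria and enclosed them, and the fitted log2 fold change was -0.00 ± 0.32 (SE, n = 3 and 3). The library T2 alone held the highest value, 3.30 times the mean of G2 and G4. Without T2 the log2 fold change was 0.83, higher in calvaria, and without G3 it was 0.19. The direction of ID1 in macaque thus depended on the libraries included.

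ID2, which can also bind the retinoblastoma protein, was 150 and 98.3 CPM in mouse calvaria and 225 and 226 CPM in tibia. The log2 fold change was -0.86 ± 0.28 (SE, n = 2 and 2), and it was not called. In rat ID2 had 1763 and 1547 reads, a log2 ratio of -0.03, which became 0.26 with TMM factors. In macaque ID2 was 182, 126 and 238 CPM in calvaria against 171, 172 and 188 CPM in tibia, where the sites overlapped fully and the log2 fold change was 0.04 ± 0.19 (SE, n = 3 and 3). This sign turned without TMM factors (-0.16) and without T1 (-0.20).

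ID3, which overlaps in function with ID1 in blood vessel growth, was 157 and 123 CPM in mouse calvaria and 314 and 315 CPM in tibia. The log2 fold change was -1.17 ± 0.26 (SE, n = 2 and 2), and the gene was called. Rat ID3 had 365 reads in calvaria and 1574 in tibia, a log2 ratio of -2.33, or -2.04 with TMM factors. The macaque locus named ID3 in RefSeq was 258, 260 and 191 CPM in calvaria and 315, 323 and 369 CPM in tibia, again without overlap, at a log2 fold change of -0.51 ± 0.18 (SE, n = 3 and 3). It was called with all 6 libraries and was no longer called without T1 (-0.38).

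ID4, which can counter the other ID proteins and has been linked to osteoblast differentiation, had, with BAMBI, the widest mouse difference of the 7 genes. It was 11.7 and 7.24 CPM in calvaria and 50.2 and 46.7 CPM in tibia, a log2 fold change of -2.35 ± 0.31 (SE, n = 2 and 2), 5.10-fold higher in tibia. Rat ID4 had 209 reads in calvaria and 418 in tibia, a log2 ratio of -1.22 that did not pass the threshold. In macaque it was 32.2, 30.6 and 35.7 CPM in calvaria and 39.8, 52.1 and 47.3 CPM in tibia, without overlap, and the log2 fold change was -0.50 ± 0.21 (SE, n = 3 and 3). Its call in macaque was lost without G1 (-0.48), G3 (-0.45) or G4 (-0.40) and with an offset for exonic length (-0.38).

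SMAD6, the inhibitor directed mainly at BMP receptors, was among the least abundant of the 7. It was 15.6 and 8.38 CPM in mouse calvaria and 24.6 and 19.6 CPM in tibia, a log2 fold change of -0.88 ± 0.35 (SE, n = 2 and 2), and was not called. Its rat reads were 79 in calvaria and 190 in tibia, a log2 ratio of -1.48. In macaque it was 21.1, 23.2 and 24.8 CPM in calvaria and 29.0, 29.5 and 57.3 CPM in tibia, called at a log2 fold change of -0.74 ± 0.25 (SE, n = 3 and 3). The value of 57.3 CPM belonged to T2, and without T2 the log2 fold change was -0.33 and the call was lost, as it was without G3 (-0.75).

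SMAD7, the inhibitor of both BMP and TGF-β receptors, had the smallest mouse difference. It was 48.9 and 40.7 CPM in calvaria and 66.2 and 60.5 CPM in tibia, a log2 fold change of -0.50 ± 0.26 (SE, n = 2 and 2) that was not called. In rat the gap was wide, at 541 reads in calvaria and 2623 in tibia and a log2 ratio of -2.50. In macaque SMAD7 was 85.4, 54.8 and 114 CPM in calvaria and 120, 91.4 and 173 CPM in tibia, so that the sites overlapped although each tibia library exceeded the calvaria library of its assumed pair by 1.41 to 1.67-fold. It was called at -0.59 ± 0.22 (SE, n = 3 and 3), and the call was lost without G3 (-0.36) or T2 (-0.31).

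**Figure D1:**
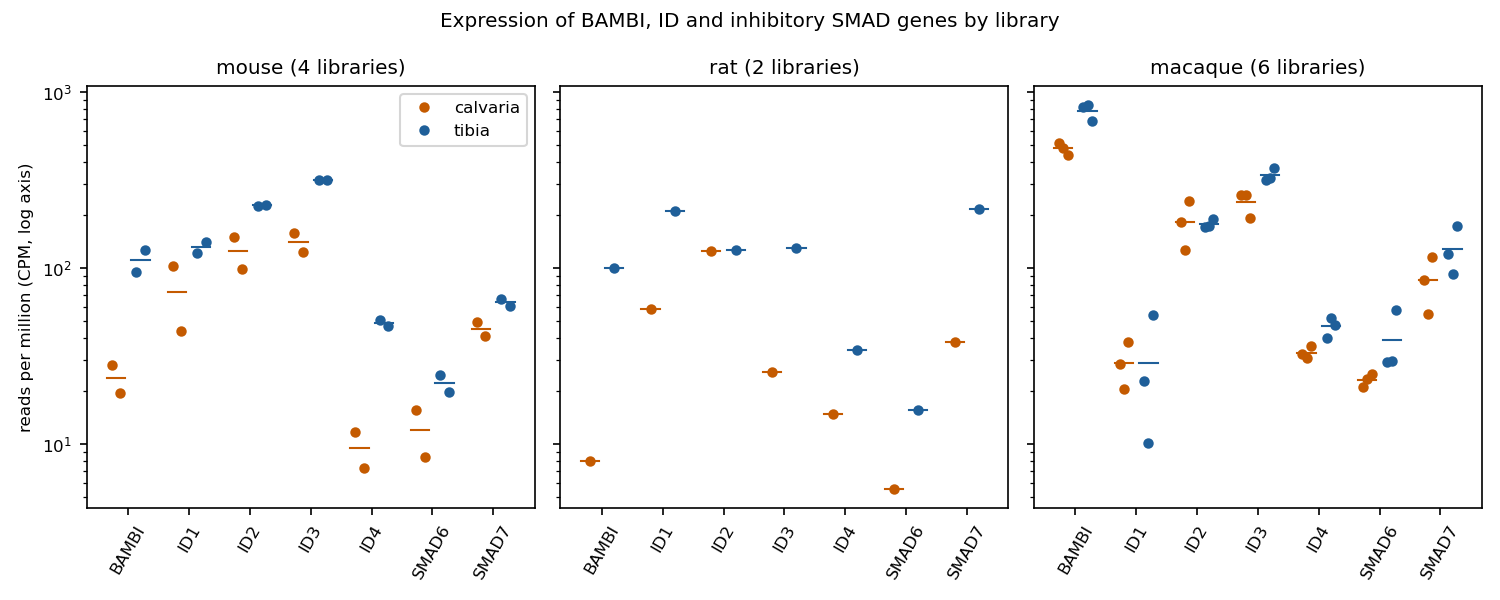
CPM (log axis) of the 7 genes in each library of mouse, rat and macaque, with calvaria in orange, tibia in blue and short lines at the site means. Macaque ID1 and ID3 are the loci that RefSeq gives those names. In mouse each gene's tibia points lie above its calvaria points, and in macaque ID1, ID2 and SMAD7 overlap between the sites.

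**Figure D2:**
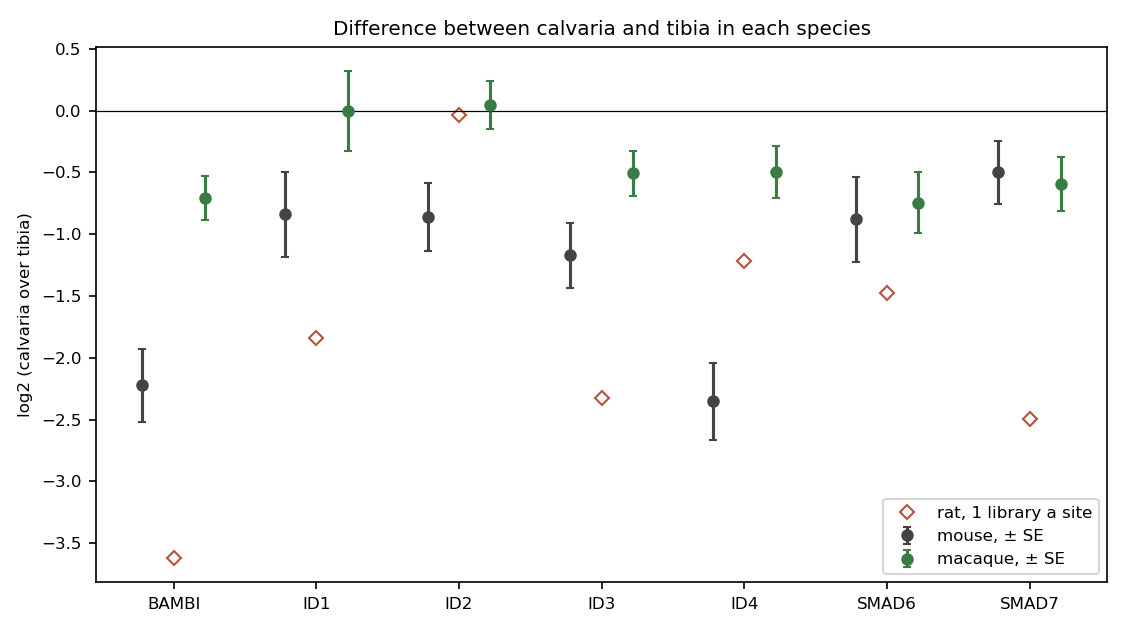
Log2 of calvaria over tibia for the 7 genes in mouse and macaque (filled circles, fitted log2 fold change with bars of ± SE) and in rat (open diamonds). Rat values are ratios of 1 library to 1 library without error and, unlike the others, without TMM factors. BAMBI runs from -3.62 in rat to -0.71 in macaque, and ID2 lies near 0 in rat and macaque.

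Counted over the set, the mouse values of all 7 genes stood in the same order, with M8 lowest, M4 next and both tibias above, so M8 and M4 separate on every gene. Complete separation with tibia higher occurred for 18.4% of all 22339 genes tested in mouse. BAMBI, ID3 and ID4 were called higher in tibia (false discovery rate below 0.2, fold change above 1.1), 3 of 7, where 1.57% of all tested genes were called in that direction and 2.29% of those with a mean of at least 1 CPM. The median log2 fold change of the 7 was -0.88, beside 0.05 over all genes tested. The mouse calls depended on the treatment of low counts. When only genes with a read in every mouse library were fitted, as the study's methods describe, BAMBI and ID4 kept their fold changes but the quasi-likelihood test of edgeR called 0 of the 7 genes, with 4 at an unadjusted p under 0.05.

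In macaque, 4 of the 5 genes with a row (BAMBI, ID4, SMAD6 and SMAD7) were called, all higher in tibia, where 9.43% of 18894 tested genes were called in that direction, or 13.7% of those with a mean of at least 1 CPM. Their sites separated completely for BAMBI, ID4 and SMAD6, beside 12.1% of all genes. The median log2 fold change of the 5 was -0.59, beside 0.03 over all genes. In rat, BAMBI, ID3 and SMAD7 passed a log2 ratio of 2, all higher in tibia, where 8.14% of 19234 genes with reads passed in that direction and 5.27% of those with a mean of at least 1 CPM. The rat pair had a general tilt, with a median log2 ratio of -0.28 over expressed genes. Unlike the mouse and macaque values, the rat ratios carry no TMM factors. With these factors BAMBI was -3.33, ID3 -2.04 and SMAD7 -2.21, still past 2. Since the genes were selected with these contrasts in view, nothing is read from the counts beside their background.

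The cell types the bone could hold also differed between the sites. Of 6 osteocyte markers (SOST, DMP1, MEPE, PHEX, FGF23 and PDPN), all 6 had reads in mouse and macaque, and their summed level was 1041 to 1847 CPM in mouse calvaria against 7623 to 10370 in tibia, 4917 to 5779 against 7777 to 17530 in macaque, and 500.2 against 7242 in rat. By edgeR's quasi-likelihood test 4 of 6 were called higher in tibia in mouse and 2 of 6 in macaque. Osteocyte markers were thus detected at both sites, 5 of 6 of them in rat, and enrichment over other cells was not tested. Of 8 leukocyte and marrow markers, 2 of 7 tested in mouse and 6 of 6 tested in macaque were called higher in calvaria, where their sum was 83990 to 108400 CPM against 49410 to 56880 in mouse tibia and 17160 to 29070 against 3371 to 6491 in macaque tibia. Of these, LYZ was at 0 or without a row in mouse, as were CD79A and ELANE in macaque.

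The erythroid sum ran the same way in macaque, at 24780 to 36150 CPM in calvaria and 6753 to 9724 in tibia, with 4 of 4 tested markers called higher in calvaria and HBA at 0 or without a row. The 8 endothelial markers, from a cell type in which ID1, ID3, SMAD6 and SMAD7 are abundant, summed to 167.5 to 172.1 CPM in mouse calvaria against 226.1 to 241.8 in tibia, with 2 of 8 called higher in tibia. In macaque their sums overlapped, at 550.5 to 765.5 and 651.7 to 736.3 CPM. T2, which had the highest ID1, SMAD6 and SMAD7 of the 3 tibias, stood apart in many lists. Its sums were the lowest of the 3 for endothelium, osteocyte (7777 CPM), pericyte and smooth muscle, and skeletal muscle. Those for osteoblast (137900 CPM), osteoclast, adipocyte, chondrocyte, leukocyte and marrow, and erythroid markers were the highest. In mouse tibia the chondrocyte sum (542.3 to 647.8 against 27.43 to 85.17 CPM) and the adipocyte sum (941 to 1085 against 196.4 to 505.4 CPM) were also above calvaria, with 2 of 5 and 4 of 5 markers called. In macaque both ran the other way, with adipocyte sums of 1679 to 2548 CPM in calvaria against 680.5 to 1435 in tibia (3 of 4 called higher in calvaria) and low chondrocyte sums of 5.19 to 10.3 against 0.342 to 4.66 CPM (1 of 4 called, ACAN at 0 or without a row). The macaque pericyte and smooth muscle sum was higher in tibia, at 1010 to 1555 CPM against 588.1 to 944.6 in calvaria. Of its 6 markers, 1 was called. Skeletal muscle sums overlapped in mouse, at 764 to 1637 CPM in calvaria and 171.2 to 1057 in tibia. They overlapped in macaque too, at 2.67 to 6.27 and 4.66 to 10.6 CPM. In rat, with 1 library a site, the endothelial (454.3 against 237.8 CPM), pericyte (265.8 against 88.18) and chondrocyte (32.7 against 7.295) sums were higher in tibia. So were the skeletal muscle (431.4 against 7.015), adipocyte (183.8 against 107.3) and osteoclast (1587 against 1276) sums. Rat calvaria was higher in the osteoblast (9960 against 5456), leukocyte and marrow (74810 against 40440) and erythroid (14220 against 10950) sums. The part of these cell types in the differences of BAMBI, the ID genes and the SMADs was not tested.

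**Figure D3:**
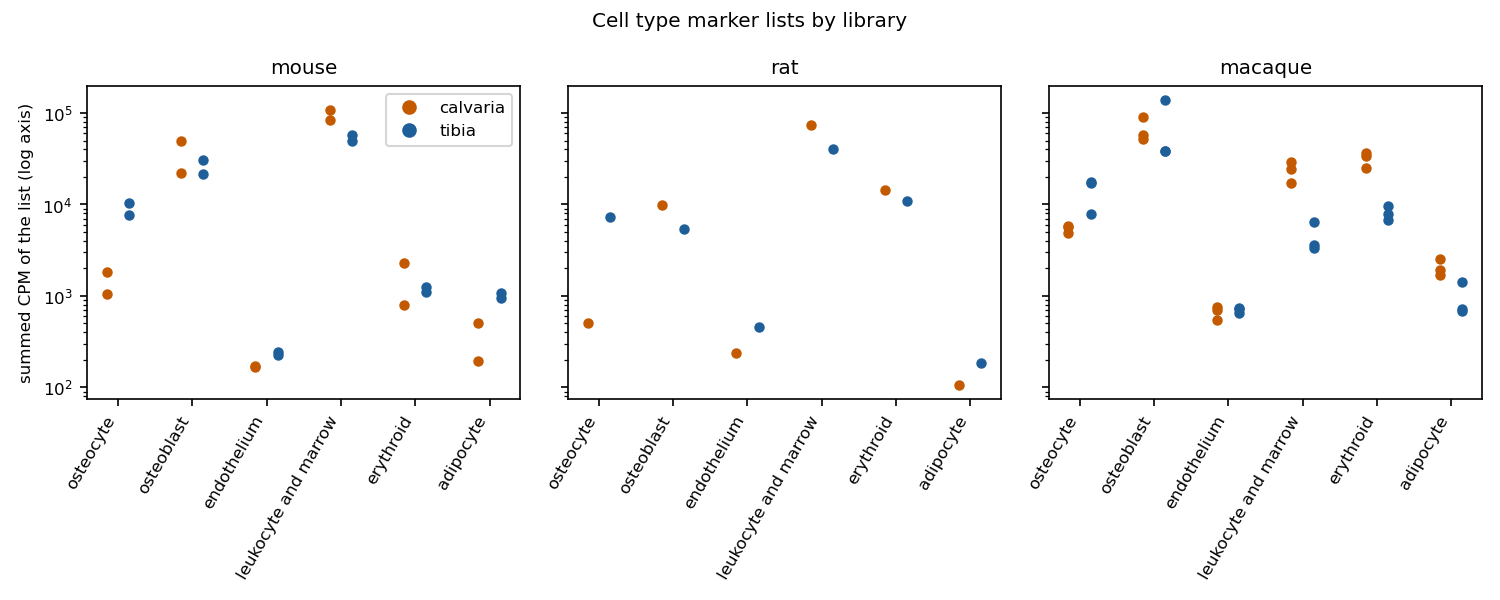
Summed CPM (log axis) of 6 marker lists in each library, with calvaria in orange and tibia in blue. Osteocyte sums are higher in tibia in each species, and leukocyte and marrow sums are higher in calvaria; erythroid sums separate the sites in macaque but not in mouse.

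Levels can be compared between the genes only per exonic length, as RPKM (CPM scaled by exonic length). In mouse tibia the order was ID3 (330 ± 0.46 RPKM, SD, n = 2), ID2 (177 ± 0.38), ID1 (137 ± 14.0), ID4 (28.1 to 30.3), BAMBI (21.9 ± 4.52), SMAD7 (14.3 ± 0.91) and SMAD6 (6.18 to 7.74), and no neighbours in this order overlapped. In mouse calvaria ID3 again led, at 146 ± 25.2 RPKM (SD, n = 2), but ID2 and ID1 overlapped, SMAD7 at 10.1 ± 1.30 RPKM stood at place 4, and ID4, BAMBI and SMAD6 overlapped in sequence. Per length, ID4 and BAMBI therefore stood above SMAD7 in the tibia and below it in the calvaria. In mean CPM of the tibia, BAMBI (111) was also above SMAD7 (63.4) but ID4 (48.5) was below it. The place of ID4 above SMAD7 thus rests on annotated length.

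In macaque the order was led by BAMBI, at 347 ± 28.2 RPKM in calvaria and 567 ± 63.2 in tibia (SD, n = 3), above ID3 at 222 ± 36.8 and 316 ± 27.3 RPKM. ID2 followed at 83.7 ± 25.7 RPKM in calvaria and 81.2 ± 4.54 in tibia, where it overlapped with ID1. SMAD6 and ID4 were lowest at both sites and overlapped with each other, between 7.60 and 20.6 RPKM. In rat ID2 led at both sites, with 169 RPKM in calvaria and 173 in tibia, while BAMBI took place 4 in calvaria (9.50 RPKM) and place 3 in tibia (118 RPKM). The exonic length of BAMBI in these tables is 5040 bases in mouse, 842 in rat and 1368 in macaque. Its level per length is therefore not comparable between the species. The lengths of ID1 (951, 1878 and 658 bases) and ID2 (1272, 733 and 2179 bases) differ between the species too. In rat tibia ID2 had fewer CPM (126) than SMAD7 (214), ID1 (209) and ID3 (129), so its lead there rests on its annotated length. In rat calvaria ID2 was also the highest of the 7 in CPM (124).

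**Figure D4:**
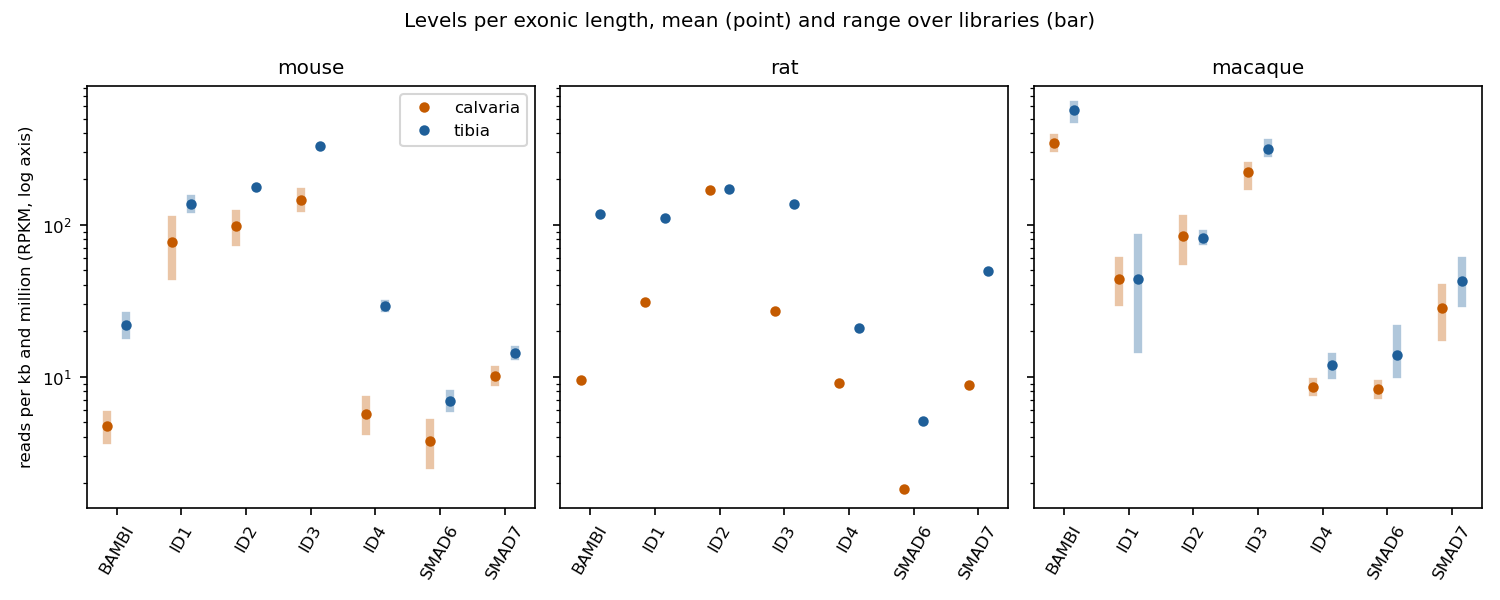
RPKM (log axis) of the 7 genes, with points at site means and bars over the range of the libraries, calvaria in orange and tibia in blue. Per annotated length, ID3 leads in mouse, ID2 in rat and BAMBI in macaque.

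The make-up of the ID family was given by each gene's share of its summed level. In mouse ID3 held 41.5% to 50.2% of the summed ID RPKM in calvaria and 48.3% to 49.6% in tibia, and ID2 held 29.7% to 30.2% and 26.0% to 26.7%. ID4 was the smallest share, 1.70% to 1.78% in calvaria against 4.12% to 4.56% in tibia. In macaque ID3 was the main member at both sites, with 50.4% to 71.6% in calvaria and 65.8% to 73.9% in tibia. In rat ID2 held 71.5% in calvaria and 39.1% in tibia, and ID3 held 11.5% and 30.9%. These rat shares rest on annotated lengths of 733 bases for ID2, 1878 for ID1 and 942 for ID3.

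Across the 12 libraries, with each species mean removed, BAMBI varied most like ID3 among the other 6 genes (Pearson r = 0.97 of log2 CPM, rank 10 of 7514 genes expressed in all species), then like ID4 (r = 0.87). Its correlation with ID1 was 0.56 and with ID2 0.51. The 5 genes most like BAMBI were JAM2 and PRR15 (r = 0.99 for both) and MEF2A, NGEF and JUP (r = 0.98 for each), a junction protein, a gene of little-known function, a transcription factor, a guanine nucleotide exchange factor and a junctional catenin. Those most like ID1 were SOX18, an endothelial transcription factor (r = 0.96), VASN, FBLN2, TRIM47 and CRIP2 (r = 0.93 for each of the last 4). Those most like ID4 were FRZB, a secreted Wnt antagonist (r = 0.95), CHST1, SEMA3E, WFDC1 and APOD. The libraries share sites, depth and preparation, and these values rank likeness only. Only species means were removed, so species with a wide site gap weigh more in r. The log2 of calvaria over tibia for BAMBI was -3.62 in the unreplicated rat pair, -2.22 in mouse and -0.71 in macaque. Its r values thus follow mainly the site gap of the rodents, which was known when the genes were selected. They say little about variation among the macaque libraries.

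Other genes of the pathway were examined by the same fit in 9 lists with 91 symbols. In mouse 1.57% of all tested genes were called higher in tibia, or 2.29% of those with a mean of at least 1 CPM. Of the 88 list genes tested, 10 passed edgeR's quasi-likelihood test, all higher in tibia. They were spread over the BMP ligands (BMP7, BMP8B and GDF7), the TGF-β and activin ligands (TGFB2), the receptors and co-receptors (ACVR1C, BMPR1B and TGFBR3), the extracellular antagonists (CHRDL1) and other BMP targets (DLX3 and HEY2). The remaining 4 lists, the receptor-regulated and common SMADs, intracellular inhibitors, TGF-β targets and bHLH partners, had no called gene. No gene of the 9 lists was called higher in calvaria, where 0.712% of all genes were; 4 had an unadjusted p under 0.05 in that direction, and edgeR's exact and likelihood ratio tests and DESeq2 also called 0. Calls in that direction appeared when libraries were left out: without M8, 15 of 35 calls were higher in tibia and the rest, the majority, higher in calvaria, and without M4 and without M5 it was 58 of 60 and 2 of 3 in tibia. The median over the 88 genes was -0.28. None of the 10 calls remained when genes without a read in every library were left out, where 12 pathway genes had an unadjusted p under 0.05.

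In macaque 32 of 78 tested genes were called, 27 higher in tibia and 5 higher in calvaria, beside 9.43% and 10.3% of all genes tested. The median over the 78 was -0.49. The BMP targets other than the 7 genes had the highest count of any list, with 7 of 11 called higher in tibia and a list median of -0.79, and the extracellular antagonists had 5 of 9 called higher in tibia with a median of -0.83. In rat 20 of the 80 genes with reads passed the threshold of 2, all higher in tibia. Over all rat genes with reads 8.14% passed in that direction, or 5.27% of those with a mean of at least 1 CPM. Toward calvaria 299 rat genes passed, none of them in the lists, and the median log2 ratio over expressed genes was -0.28. Some of the 20 rested on few reads, such as SP7 (2 in calvaria, 11 in tibia), MSX2 (2 and 21) and TWIST2 (0 and 4). The 5 genes called in both mouse and macaque were BMP7, TGFB2, TGFBR3, DLX3 and HEY2, each higher in tibia.

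Among the ligands, BMP7, an osteogenic BMP, had 171 and 95 reads in mouse calvaria and 549 and 553 in tibia, a log2 fold change of -1.92 ± 0.31 (edgeR quasi-likelihood, adjusted p = 0.0073). In macaque it had 128, 116 and 219 reads in calvaria and 836, 769 and 1029 in tibia, at -2.30 ± 0.22 (edgeR quasi-likelihood, adjusted p = 7.3e-10), the widest gap among the called BMP ligands. In rat BMP7 had 5 reads in calvaria and 108 in tibia. BMP7 thus had more reads in tibia in each species. TGFB2, a TGF-β that bone matrix stores, was called in mouse at -1.13 ± 0.32 (edgeR, adjusted p = 0.18) and in macaque at -1.25 ± 0.20 (edgeR, adjusted p = 1.1e-05), and had 605 and 13575 reads in rat calvaria and tibia.

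BMP4 had a gap in macaque, from 103 to 143 reads in calvaria to 387 to 487 in tibia (log2 fold change -1.62 ± 0.23, edgeR adjusted p = 2.5e-06), while its mouse value of -0.51 ± 0.28 was not called. TGFB3 was called in macaque at -1.26 ± 0.33 (edgeR, adjusted p = 0.0071). INHBA, the subunit of activin A, went the other way in macaque, with 1669 to 1984 reads in calvaria and 1215 to 1240 in tibia (0.75 ± 0.18, edgeR adjusted p = 0.0031), and its mouse value of 0.68 ± 0.27 was not called. The mouse calls of BMP8B and GDF7 rested on few reads, 2 and 1 against 24 and 35 for BMP8B, and 7 and 10 against 47 and 55 for GDF7.

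Of the receptors, BMPR1B, a type I BMP receptor, had 2 and 0 reads in mouse calvaria and 57 and 32 in tibia, and ACVR1C, a type I receptor for nodal and activins, had 1 and 9 against 66 and 58. In macaque neither was called. TGFBR3, the co-receptor betaglycan, was called in mouse at -1.27 ± 0.30 (edgeR, adjusted p = 0.079) and in macaque at -0.49 ± 0.19 (edgeR, adjusted p = 0.11), where its sites overlapped. ACVR1, the type I receptor that is mutated in fibrodysplasia ossificans progressiva, was called only in the macaque fit, at -1.08 ± 0.22 (edgeR, adjusted p = 0.00045), beside -0.82 ± 0.37 in mouse. TGFBR2 was called in macaque at -0.58 ± 0.18 (edgeR, adjusted p = 0.032). The difference between the species was not tested.

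Of the 6 SMADs that carry the signal, none was called in mouse. In macaque SMAD5, a BMP-receptor SMAD, was higher in tibia (-0.56 ± 0.19, edgeR adjusted p = 0.051) while SMAD3, an activin and TGF-β SMAD, was higher in calvaria (0.83 ± 0.29, edgeR adjusted p = 0.058). TOB1 and TOB2, antiproliferative proteins that bind SMADs, were called higher in macaque tibia at -0.70 ± 0.23 and -0.67 ± 0.21 (edgeR, adjusted p = 0.038 and 0.028), TOB1 with overlap between the sites. Their mouse values, -0.05 ± 0.31 and 0.05 ± 0.25, lay within their SE.

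Of the secreted antagonists, NOG, which binds BMPs, had 431, 480 and 764 reads in macaque calvaria and 1187, 1171 and 3931 in tibia, where T2 stood highest (-1.66 ± 0.27, edgeR adjusted p = 1.7e-05). In mouse NOG overlapped between the sites, at 768 and 145 reads in calvaria and 361 and 285 in tibia. CHRDL1, a chordin-like BMP binder, had 1006 and 294 reads in mouse calvaria and 2042 and 1744 in tibia (-1.43 ± 0.38, edgeR adjusted p = 0.13), and at most 13 reads in a macaque library.

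Of the other targets, DLX3, a homeobox factor of bone and tooth, was called in mouse at -1.41 ± 0.31 (edgeR, adjusted p = 0.048) and in macaque at -1.01 ± 0.26 (edgeR, adjusted p = 0.0056), and had 143 and 1435 reads in rat calvaria and tibia. DLX5 was called in macaque at -1.18 ± 0.18 (edgeR, adjusted p = 8.2e-06), with 993 to 1239 reads against 2631 to 3098, and its mouse sites overlapped. HEY2, a bHLH repressor, was called at -1.53 ± 0.42 in mouse and -0.79 ± 0.20 in macaque (edgeR, adjusted p = 0.15 and 0.0047). Among TGF-β targets, POSTN was lower in macaque calvaria at -2.14 ± 0.27 (edgeR, adjusted p = 1.4e-07), and CTGF was lower in calvaria at -0.87 ± 0.20 (edgeR, adjusted p = 0.0024).

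Of the bHLH factors that ID proteins bind or oppose, 2 of 3 tested in macaque were called, both higher in calvaria. TWIST1 was called higher in macaque calvaria at 0.51 ± 0.22 (edgeR, adjusted p = 0.15) with overlap between the sites, and was 1.03 ± 0.38 in mouse without a call. TCF3, which encodes the E proteins E12 and E47, overlapped between the sites in mouse, at 1271 and 889 reads against 1208 and 840. Its macaque call rested on 11 reads of T1 with 0 reads in the other 5 libraries, so it is a value of 1 library.

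**Figure D5:**
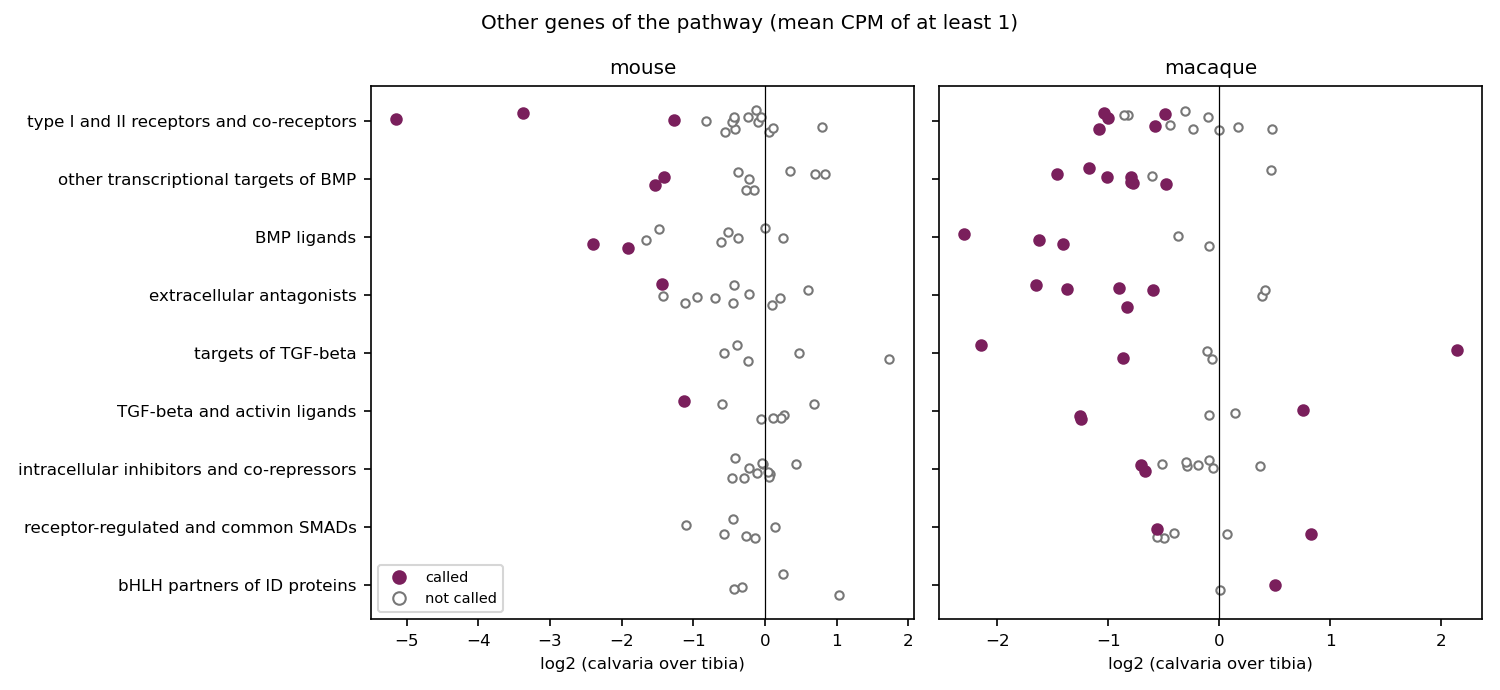
Log2 fold change of calvaria over tibia for the other pathway genes with a mean of at least 1 CPM, by list, in mouse (78 genes, 9 called) and macaque (62 genes, 31 called). Filled points passed edgeR's quasi-likelihood test and open points did not; called genes lie left of 0 (higher in tibia) in mouse and mostly left of 0 in macaque.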

How the data were processed

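Poly(A)+ RNA of 12 bone samples was sequenced as single reads of 125 bases. Per the study's methods, the authors mapped reads with HISAT2 2.0.5 to mm10, rn6 and MacaM and counted them with HTSeq on merged exons without strand; the submitters' processing notes instead name BWA 0.7.10-r789. The deposited values used were raw counts per gene and library, without normalization. The exonic length given in the tables served for RPKM. A normalised signal of the authors beside the counts was not used. Macaque G and T libraries came in separate tables of raw counts, which were joined.

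Rows naming no gene, 0.00261% to 0.0663% of a library's reads, were left out, and rows with the same upper-case symbol were summed. In macaque, 5939 of 17111 LOC rows received a symbol by NCBI gene ID from RefSeq (a newer assembly than MacaM, names only), ID1 and ID3 among them. Each species table was fitted whole, keeping symbols with at least 1 read, in edgeR 4.0.16 (R 4.3.3; TMM factors, quasi-likelihood test, Benjamini-Hochberg adjustment), which departs from the authors' filter on genes with a read in every sample. SE is the log2 fold change divided by the square root of F. Rat used the log2 ratio of CPM with 1 read added and a threshold of 2. Replicates are separate libraries, and p-values measure only the spread between them.

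Named genes were the 7 genes; per list those called in mouse and the 2 smallest p-values per direction among macaque calls; and the 5 genes most like BAMBI, ID1 and ID4; some genes that meet this rule are not reported here. The genes and lists were chosen with earlier results of these data known. Alternatives were DESeq2 1.42.0, edgeR's exact and likelihood ratio tests, other size factors, filters, thresholds, a length offset, replicate blocks and single libraries left out. On simulated data the quasi-likelihood test called 148 of 200 genes changed by a log2 of 2 in mouse and 197 of 200 in macaque. Of its calls, 20.9% in mouse and 18.6% in macaque were genes left unchanged. The changed genes were drawn from genes with many reads, so low-count calls are not covered. The study states that skull and tibia were paired but names no pairs. Assuming G1 with G2, G3 with G4 and T1 with T2, deviations from site means correlated across 12305 genes at 0.169, 0.244 and 0.421, against -0.310 to 0.0784 for other combinations; the pairs come from label order.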

Additional observations from a re-analysis of the deposited data

Results flagged for a closer look

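Reads on the processed pseudogene of mouse Bambi, which no comparison uses, summed to 153 over the 4 mouse libraries, above the limit that a count of 0 allows. The pseudogene had 46 and 33 reads in calvaria and 40 and 34 in tibia, so it was level across the sites while Bambi was not. It held 1.80% to 11.5% of the reads on Bambi and the pseudogene together.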

How the results depend on the processing

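The 7 genes were selected on these same counts, so their calls and p-values below are a description and test no site difference. The mouse count of called genes among the 7 was 3. It fell to 0 with only genes read in every library and with edgeR's filterByExpr. There the smallest adjusted p of the 7 (edgeR quasi-likelihood) was 0.232 and 0.224, and 4 had an unadjusted p under 0.05. The pathway count of 10 in mouse fell to 0 under both of these and with symbols read in all 3 species, where the smallest adjusted p was 0.293, 0.261 and 0.260 and 12, 13 and 10 genes had an unadjusted p under 0.05. Below a false discovery rate of 0.05 it was 3. The count over all mouse genes, 510, was 14, 29, 32 and 208 in the same order. With single libraries left out, the lone library of a site being assumed to vary like the other site, it ranged from 220 to 7470, that of the pathway genes from 2 to 60 and that of the 7 from 2 to 7, the highest values without M4; without M8 they were 3816, 35 and 7, and without M5 and M7 the 7 gave 2 each, all genes 220 and 312 and pathway genes 3 and 2. ID3 lost its call without M5 or M7. The cause was not tested.

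In macaque, 4 of 5 called genes became 2 below a false discovery rate of 0.05. At an absolute log2 fold change over 1.1 edgeR called 0, since the 5 lay between -0.74 and 0.04, and 4 of them had an unadjusted p under 0.05. Pathway genes went from 32 to 12 at that fold limit, and all genes from 3724 to 1978 at the false discovery rate of 0.05 and to 1550 at the fold limit. Without single libraries the 5 gave 1 (without G3) to 4 calls, 2 without T2, and all genes 2301 (without G3) to 4998 (without T2). The SMAD7 call in macaque was also lost by the exact and likelihood ratio tests and with both low-count filters. Macaque ID1 turned positive in sign with reads in every library (0.0010), filterByExpr (0.00085), the letter of the labels as a term (0.19), without G1 (0.0086), without G3 (0.19) and without T2 (0.83), (range without single libraries -0.41 to 0.83), and ID2 turned negative without TMM factors (-0.16) and without T1 (range without single libraries -0.20 to 0.25). In rat 6 of 7 passed a log2 ratio of 1, against 3 at 2. Among these 6, ID4 lay at -1.22 and moved to -0.93 with TMM factors. With a replicate block on the assumed pairs (M4 with M5 and M8 with M7), pathway genes called in mouse were 6 and all mouse genes 295, and with the other pairing 7 and 395. In macaque the block gave 41 pathway calls against 32 and 4784 over all genes against 3724, and ID1 became 0.23 and ID2 -0.0015; the block changed no other call of the 7 genes.

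Macaque ID1 and ID3 rest on names taken from a newer assembly, mouse calls on 2 libraries a site and rat values on 1. Depth limits ACVR1C, BMP8B, BMPR1B and GDF7 in mouse, which had between 0 and 10 reads in a calvaria library. Intervals were not drawn, and errors cover the spread between libraries only.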
